A study of Mus musculus with 10 samples.

Results

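Klf2, Klf4 and Klf5 were followed through 6 hours of SOX2 loss in mouse embryonic stem cells (mESCs), together with the non-genic transcription around them. The assay was TT_chem-seq, in which RNA made during a short pulse of 4-thiouridine is captured and sequenced, and fragments were counted in transcribed units (TUs), stretches of continuous transcription on 1 strand that span exons and introns together. The 3 genes were taken by symbol and are 3 of 40779 TUs. All extragenic and antisense TUs within 100 kb of each gene's TU were added as candidate enhancer transcription: 25 TUs (8 at Klf2, 6 at Klf4 and 11 at Klf5), of which 15 held enough fragments to be tested, while the 3 genes were tested throughout. The 7 genes within the same windows were tested as well.

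All 10 libraries came from E14 cells of the SOX2-FKBP genotype, in which SOX2 carries a degron on both alleles in a clonal line, and were grown on gelatin in serum-free medium with LIF, a MEK inhibitor and a GSK3-β inhibitor. The not treated group (NT) received DMSO and the other groups 500 nM dTAG-13 for 0.5, 1, 2 or 6 h (hours post depletion, hpd). Each group had 2 replicates and all cells were labelled with 2 mM 4-thiouridine for 10 min. Medium was refreshed before treatment, and the depletions were begun at different times so that all groups could be collected at once. Since no untagged cells with the compound were analysed here, loss of SOX2 and other effects of the compound cannot be told apart. The labels do not say whether replicates were separate cultures, and p-values measure the spread between these libraries, which may be technical.

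Krüppel-like factors are zinc finger proteins that bind GC-rich and CACCC sequences at promoters and enhancers, as do the related SP proteins. Klf2, Klf4 and Klf5 are expressed in naive mESCs, where they act in part redundantly to maintain self-renewal. Klf4 lies downstream of LIF and STAT3, Klf2 is linked to the response to MEK inhibition, and Klf5 is also needed in the early embryo. SOX2, usually together with OCT4, binds many enhancers of pluripotency genes.

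Libraries held 11131490 to 25854106 fragments. The summed level of 6 naive markers (Pou5f1, Nanog, Sox2, Esrrb, Zfp42 and Tfcp2l1) was 3808 to 4181 CPM (the edgeR scaling of counts to a common library total, here with TMM factors) in NT and 3286 to 3550 CPM at 6 hpd. Of 5 fibroblast markers, Col1a2 and Twist2 had no TU, and the summed level of the others was 9.74 to 12.5 CPM in NT and 27.3 to 42.6 CPM at 6 hpd. Primed markers, with no TU for Fgf5 and Dnmt3b, summed to 8.68 to 9.59 CPM in NT, 4.49 to 5.56 CPM at 0.5 hpd and 6.81 to 7.22 CPM at 6 hpd, and every depleted library was below NT. Endoderm markers, with no TU for Foxa2, summed to 2.4 to 2.63 CPM in NT and 2.89 to 4.04 CPM after depletion. The part of these shifts in the results was not tested. Sox2 itself, which encodes the degraded protein and whose transcription does not check the depletion, changed by at most 0.12 on the log2 scale at any time and was not called.

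The Klf2 TU lies on mm10 at chr8:72318948-72329182 on the plus strand, and the Klf4 TU at chr4:55520177-55533012 on the minus strand. The Klf5 TU lies at chr14:99297763-99373070 on the plus strand. Each ran well beyond its annotated gene: 73.6% of the Klf2 TU, 54.2% of the Klf4 TU and 79.2% of the Klf5 TU lay past the annotated gene end. Deposited transcript starts were 1 bp below those of RefSeq for all 3 genes, so that starts given here are likely 1 bp low in a count from 1.

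The promoters of Klf2 and Klf4 are shown because both genes fell after SOX2 loss. Klf5 fell as well, but the set of RefSeq promoter sequences used here had no entry for it. The sequences are the 250 bases before the gene's start on GRCm38.p6 (chr8:72318812-72319061 on the plus strand for Klf2 and chr4:55532476-55532725 on the minus strand for Klf4), read 5′ to 3′ in the direction of transcription. Capitals mark GGGCGG on either strand, the GC box bound by KLF and SP factors.
Klf2 promoter: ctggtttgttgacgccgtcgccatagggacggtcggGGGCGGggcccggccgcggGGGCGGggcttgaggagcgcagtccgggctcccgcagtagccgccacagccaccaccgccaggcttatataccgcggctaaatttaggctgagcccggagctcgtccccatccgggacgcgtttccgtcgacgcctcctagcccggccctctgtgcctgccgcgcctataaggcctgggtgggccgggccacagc
Klf4 promoter: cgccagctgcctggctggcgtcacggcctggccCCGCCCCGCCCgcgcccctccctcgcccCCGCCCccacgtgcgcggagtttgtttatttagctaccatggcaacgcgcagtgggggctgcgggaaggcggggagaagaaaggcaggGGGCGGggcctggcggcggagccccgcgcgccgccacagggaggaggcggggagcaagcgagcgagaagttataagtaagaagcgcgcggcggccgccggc
Klf2 held 2 matches and Klf4 held 4, of which 1 pair overlapped by 1 base. GGGCGG occurred in 32.7% of 32851 RefSeq promoters of this length. Neither window held the SOX motif ACAATG. The variant of that motif with letters ACAAAG was absent as well, and at least 1 of these motifs, searched on both strands, occurred in 25.2% of the promoters. Part of the octamer read by OCT factors, ATGCAAA (4.12% of promoters), was not found in either window. Nor was the CACCC type KLF site GGGTGTG (6.93%). An absent match says only that these letters are not in this window.

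Downstream of Klf2 lies an element that the study edited, with a SOX motif that was mutated and guide pairs designed to delete it. Its reference sequence is shown because a TU near Klf2 was transcribed across it (GRCm38.p6, chr8:72334343-72334427, plus strand). Capitals mark the ACAAAG motif, at bases 41 to 46.
Klf2 downstream SOX site: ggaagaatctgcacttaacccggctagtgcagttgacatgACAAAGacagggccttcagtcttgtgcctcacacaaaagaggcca
All 15 guides designed for the deletion matched the reference exactly at 14983 to 15696 bp past the start of the Klf2 TU. All of them fell within transcribed-unit_18089, an extragenic TU on the strand of Klf2 (chr8:72333782-72336765). No edited cells are among these libraries.

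At the Klf4 locus lies a pair of long extragenic TUs that face each other and overlap. The windows from 250 bases before to 50 bases after their starts are shown because these were the most counted candidates of the locus. The window of transcribed-unit_9069 lies at chr4:55482264-55482563 on the minus strand and that of transcribed-unit_7662 at chr4:55461327-55461626 on the plus strand (GRCm38.p6). Capitals mark ATGCAAA on the reverse strand in the former. In the latter they mark GGGTGTG on the strand shown and ACAAAG on the reverse strand.
transcribed-unit_9069 start: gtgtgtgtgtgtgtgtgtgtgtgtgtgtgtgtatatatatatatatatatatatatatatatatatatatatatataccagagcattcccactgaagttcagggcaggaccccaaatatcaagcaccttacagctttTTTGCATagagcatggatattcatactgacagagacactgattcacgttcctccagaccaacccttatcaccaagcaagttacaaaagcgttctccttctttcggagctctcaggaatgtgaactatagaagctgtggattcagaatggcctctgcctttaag
transcribed-unit_7662 start: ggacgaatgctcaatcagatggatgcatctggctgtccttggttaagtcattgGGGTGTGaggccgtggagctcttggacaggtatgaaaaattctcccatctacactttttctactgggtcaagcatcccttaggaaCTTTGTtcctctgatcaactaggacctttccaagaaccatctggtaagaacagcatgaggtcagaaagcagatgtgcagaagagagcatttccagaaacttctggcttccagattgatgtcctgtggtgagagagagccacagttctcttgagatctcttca
Over the 13462 tested extragenic and antisense TUs, the same windows held ATGCAAA in 6.43%, GGGTGTG in 9.47% and ACAAAG in 20.9%. The start windows of transcribed-unit_18089 near Klf2, transcribed-unit_7663 near Klf4 and transcribed-unit_31976 in Klf5 held none of the 5 motifs searched. That of transcribed-unit_19064 near Klf2 held ACAATG on the reverse strand, and also GGGCGG, which occurred in 11.4% and 21.6% of these windows. TU starts were set by a segmentation of coverage, so that a start may lie away from the initiation site.

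Klf2 had the lowest log2 fold change of the 3 genes at each time, and was the 1 of them called at 0.5 hpd in the fit as reported. With the replicate number as a block, Klf4 and Klf5 were called then as well. The level of Klf2 was 76.9 and 79.1 CPM in NT and 13.5 and 12.3 CPM at 0.5 hpd. Later libraries had 6.46 and 7.29 CPM (1 hpd), 5.26 and 6.84 CPM (2 hpd) and 6.67 and 6.35 CPM (6 hpd). All depleted libraries lay far below NT, and the libraries at 0.5 hpd lay between NT and all later ones. The means were 16.6%, 8.81%, 7.75% and 8.34% of NT at 0.5, 1, 2 and 6 hpd. The log2 fold change was -2.58 ± 0.13 (SE, n = 2 per group; edgeR adjusted p = 1.3e-07) at 0.5 hpd. It was -3.50 ± 0.14 at 1 hpd (edgeR adjusted p = 1.9e-09), -3.69 ± 0.14 after another hour (edgeR adjusted p = 7.5e-10) and -3.58 ± 0.14 at the end of the series (edgeR adjusted p = 1.3e-09). Of 28459 tested TUs, Klf2 had the lowest p at 0.5 hpd, and ranked 2 and then 3 at the later times. It was not the TU with the lowest log2 fold change: 0.0738%, 0.123%, 0.172% and 0.495% of tested TUs were lower at 0.5, 1, 2 and 6 hpd. Between 0.5 and 1 hpd Klf2 fell by a further 0.92 ± 0.15 on the log2 scale (edgeR adjusted p = 0.022), a comparison in which 0.0984% of all tested TUs were called down. Leaving out any 1 library of NT, 0.5 hpd or 1 hpd, or replicate 1 of 6 hpd, ended that call, with values of -1.01 to -0.83 over all libraries left out. After 1 hpd no further change was called: 2 against 1 hpd gave -0.19 ± 0.16 and 6 against 2 hpd 0.11 ± 0.16, the last with a 95% interval of -0.23 to 0.45.

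Klf4 fell to about 50% of NT. NT libraries held 102 and 119 CPM, and those of 0.5 hpd 61.2 and 83.0 CPM. Values of 51.2 and 63.5 CPM (1 hpd), 48.4 and 67.6 CPM (2 hpd) and 50.9 and 56.7 CPM (6 hpd) followed. Both NT libraries lay above every depleted library. The groups at 1, 2 and 6 hpd overlapped one another, and that at 0.5 hpd overlapped those at 1 and 2 hpd but lay above both libraries at 6 hpd. The log2 fold change at 0.5 hpd, -0.63 ± 0.17, did not pass the threshold (edgeR adjusted p = 0.095). It passed with DESeq2 (adjusted p = 0.027) and in an edgeR fit of the libraries compared alone (adjusted p = 0.026). Klf4 was called after 1 h (-0.95 ± 0.17, edgeR adjusted p = 0.0031), 2 h (-0.93 ± 0.17, edgeR adjusted p = 0.0022) and 6 h (-1.04 ± 0.17, edgeR adjusted p = 0.0007). No call was made between successive times, and the 95% interval for 6 against 1 hpd was -0.46 to 0.27. Leaving out NT replicate 2 ended the calls after 1 h (-0.81) and 2 h (-0.81), and leaving out 1 hpd replicate 1 also ended the former (-0.80). The call after 6 h was kept whichever library was left out.

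Klf5 had the smallest fitted change of the 3 genes at each time, and was called at 1 and 6 hpd. NT libraries had 358 and 421 CPM. Depleted libraries had 293 and 315 CPM (0.5 hpd), 260 and 284 CPM (1 hpd), 319 and 322 CPM (2 hpd) and 239 and 233 CPM (6 hpd). Every depleted library was below both NT libraries, and the libraries at 6 hpd were the lowest. The changes at 0.5 hpd (-0.36 ± 0.11, edgeR adjusted p = 0.15) and at 2 hpd (-0.28 ± 0.11, edgeR adjusted p = 0.12) were not called. With total counts, among other settings, the latter passed (-0.40, edgeR adjusted p = 0.022). Those at 1 hpd (-0.52 ± 0.11, edgeR adjusted p = 0.0087) and 6 hpd (-0.72 ± 0.11, edgeR adjusted p = 0.00032) were. The difference of 6 against 2 hpd was -0.44 ± 0.11 (edgeR adjusted p = 0.078), and with DESeq2 its adjusted p was 0.012. Leaving out NT replicate 2 (-0.38) or either library of 1 hpd (-0.46 and -0.58) ended the call after 1 h, whereas the call after 6 h was kept in all 10 fits that left out a library.

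**Figure D1:**
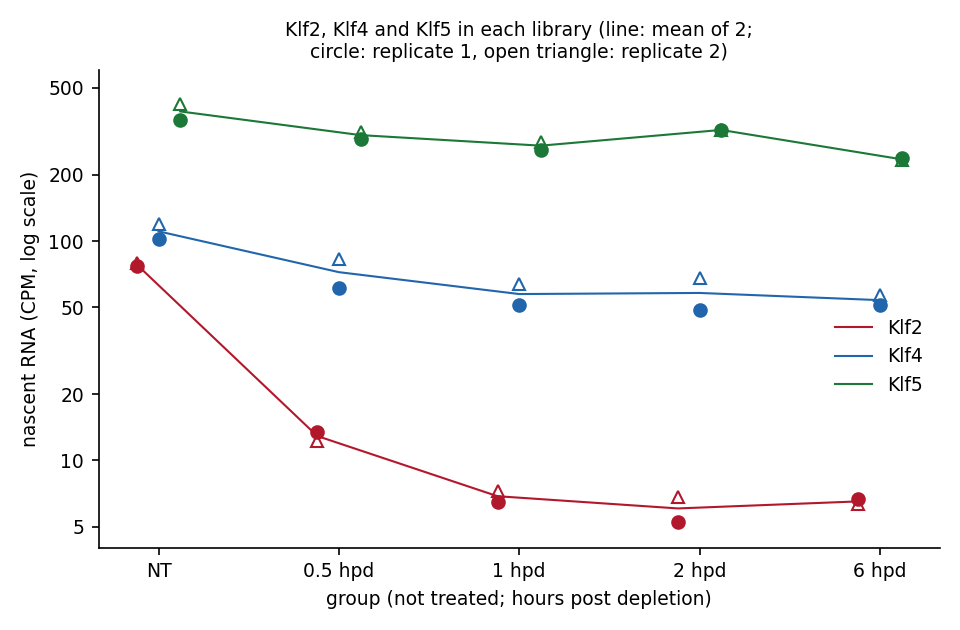
Nascent RNA of Klf2, Klf4 and Klf5 in each of the 10 libraries, in CPM on a log axis, by group; points are libraries and lines join the means of 2. Klf2 drops from 76.9 and 79.1 CPM to 13.5 and 12.3 CPM within 0.5 h, whereas Klf4 and Klf5 keep 48.6% and 60.5% of their NT means at 6 hpd.

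In all, 1, 3, 2 and 3 of the 3 genes were called down after 0.5, 1, 2 and 6 h, and none up, where 0.787%, 3.61%, 5.57% and 9.2% of all tested TUs were called down. In a joint test of the 4 times, which called 12.3% of all tested TUs, the adjusted p was 1.3e-10 for Klf2, 0.0018 for Klf4 and 0.0026 for Klf5 (edgeR). The comparisons share the NT libraries and are not independent.

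The order of the 3 genes changed with the depletion per kb of TU, but not in CPM, where Klf5 was highest and Klf2 lowest in every library. Most of each TU lies past the annotated gene end, so levels per kb depend on that stretch. Per kb of TU, NT libraries held 7.52 and 7.73 CPM per kb of Klf2, 7.94 and 9.31 of Klf4 and 4.75 and 5.59 of Klf5. Klf2 and Klf4 lay closer to each other there than either did to Klf5. The level of Klf4 per kb over that of Klf2 was 1.06 and 1.2 in NT, and 3.61 to 7.88 in the depleted libraries. For Klf5 over Klf2 the ratio rose from 0.632 and 0.724 in NT to between 2.94 and 8.25. Klf2 was thus the lowest of the 3 in all 8 depleted libraries, in which Klf4 had 3.77 to 6.47 CPM per kb and Klf5 3.09 to 4.28, with the 2 ranges overlapping. These ratios are a description, and differences between the genes were not tested.

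Near Klf2, 4 of 8 candidates were tested. The one across the edited element, transcribed-unit_18089, begins 4600 bp past the end of the Klf2 TU on the same strand. It held 17 and 12 fragments in NT, then 2 and 3 after 0.5 h, 1 and 1 after 1 h, none after 2 h, and 1 and 1 after 6 h. Every depleted library lay below both NT libraries. It passed the count filter through NT alone and had to differ in that direction, so its calls at all 4 times are given only as values (edgeR adjusted p = 0.035, 0.0041, 0.00054 and 0.0024). The ratio of NT to 0.5 hpd in CPM was 7.56 (95% counting interval 2.89 to 25.0), to 1 hpd 17 (4.29 to 147) and to 6 hpd 15.9 (4.03 to 138), while at 2 hpd NT was at least 12.5-fold higher, taking 3 fragments over the group as the floor. Leaving out any library of 0.5, 1 or 6 hpd ended its call after 0.5 h, and leaving out 1 hpd replicate 2 its call after 1 h. Without either library of NT it no longer passed the filter and was not tested at any time. Transcription that starts at the element and transcription that runs on from Klf2 cannot be told apart in these counts.

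A further extragenic TU, transcribed-unit_19064 (chr8:72266254-72271341, minus strand), starts 47607 bp upstream of Klf2. It had 17 and 11 fragments in NT, then 8 and 4 after 0.5 h, 6 and 9 after 1 h, 1 and 6 after 2 h, and 1 and 3 after 6 h. It too passed the filter through NT alone, and was not tested without either library of NT. NT exceeded 2 hpd by 5.16 (2.20 to 14.0) and 6 hpd by 7.68 (2.69 to 30.1), with calls at these times (edgeR adjusted p = 0.027 and 0.011) that ended when replicate 1 of the depleted group was left out. With DESeq2, which gave no adjusted p for it at 2 hpd, the value at 6 hpd was not called (adjusted p = 0.055). The antisense TU that starts 212 bp upstream of the Klf2 TU, transcribed-unit_19066, had 1.28 and 1.67 CPM in NT and 0.741 to 1.54 CPM after depletion, and was not called at any time. Its log2 fold change was -0.96 ± 0.35 at 0.5 hpd and -0.13 ± 0.32 at 1 hpd, when Klf2 was at -3.50. Transcribed-unit_19062, at the far end of the window, was not called either.

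No neighbouring gene of Klf2 was called in the edgeR fit as reported, and Ap1m1 was called down at 6 hpd with the mean filter (-0.40). Eps15l1, which encodes an endocytic adaptor and whose TU overlaps that of Klf2 on the opposite strand, had 184 and 171 CPM in NT and 162 to 193 CPM after depletion. Its log2 fold change stayed between -0.05 and 0.04 over the 4 times, with a 95% interval at 1 hpd of -0.19 to 0.26. Fam32a, Ap1m1 (a subunit of a clathrin adaptor complex), LOC108167537 and Calr3 (a testis calreticulin) had values of -0.49 to -0.05, none of them called.

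At the Klf4 locus 3 of 6 extragenic TUs were tested, and all 3 were called down at 6 hpd, with fitted values below that of Klf4. Transcribed-unit_9069 (chr4:55437113-55482313, minus strand) lies on the strand of Klf4, from 50699 to 95899 bp past its start. It had 32.6 and 40.0 CPM in NT and 23.8 and 26.7 CPM at 0.5 hpd. Levels of 14.8 and 18.0 CPM (1 hpd), 16.9 and 17.9 CPM (2 hpd) and 9.13 and 12.1 CPM (6 hpd) followed. The groups at 1 and 2 hpd overlapped, and both libraries at 6 hpd lay below every other. The log2 fold change was -0.53 ± 0.15 after 0.5 h (not called, edgeR adjusted p = 0.12). It was called from 1 h on, at -1.14 ± 0.15 (edgeR adjusted p = 0.0003), -1.06 ± 0.15 (edgeR adjusted p = 0.00033) and -1.76 ± 0.16 (edgeR adjusted p = 3.5e-06) after 1, 2 and 6 h. It fell by a further 0.62 ± 0.16 on the log2 scale from 1 to 6 hpd (edgeR adjusted p = 0.042), a comparison in which 2.92% of all tested TUs were called down.

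On the opposite strand, transcribed-unit_7662 (chr4:55461576-55483238) had 26.0 and 49.4 CPM in NT, a wide spread, and 16.9 and 26.8 CPM at 0.5 hpd. Later libraries held 12.3 and 16.6 CPM (1 hpd), 14.2 and 17.6 CPM (2 hpd), and 8.64 and 9.84 CPM (6 hpd). NT and 0.5 hpd overlapped, and later groups lay below NT. It was called after 1 h (-1.38 ± 0.26), 2 h (-1.24 ± 0.26) and 6 h (-2.02 ± 0.28, edgeR adjusted p = 0.00015). Without NT replicate 2 the values after 1 and 2 h were -0.82 and -0.71 and no longer called, and each of these calls also ended without replicate 1 of its own group (-1.18 and -1.09). The smaller transcribed-unit_7663 (chr4:55485904-55491832, plus strand) was called only at 6 hpd, at -1.54 ± 0.30 (edgeR adjusted p = 0.0028), with 3.43 and 3.78 CPM in NT and 1.05 and 1.4 CPM at 6 hpd. The other 3 candidates of the locus held too few fragments to be tested.

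Gm34343, a predicted gene, was the only neighbour within 100 kb of Klf4. Its TU lies on the opposite strand and begins 5409 bp past the start of the Klf4 TU. From there it runs antisense through most of the annotated Klf4 gene and on beyond its start. It had 16.4 and 16.3 CPM in NT and 10.1 to 11.9 CPM in the depleted libraries, with no overlap. Its log2 fold change was -0.52 ± 0.13 after 0.5 h (edgeR adjusted p = 0.069, not called). It was -0.67 ± 0.13, -0.48 ± 0.13 and -0.56 ± 0.13 after 1, 2 and 6 h (edgeR adjusted p = 0.0057, 0.028 and 0.0088). Leaving out either library of 1 hpd, either of 6 hpd, or 2 hpd replicate 1 ended the call of that time, and leaving out NT replicate 1 or 2 that after 2 h. The call after 2 h also ended with DESeq2 and with the libraries compared alone.

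Around Klf5, 8 of 11 candidates were tested and 1 was called. This was transcribed-unit_31976 (chr14:99322898-99359157), an extragenic TU on the minus strand that lies inside the span of the Klf5 TU but past the end of the annotated gene. It had 11.8 and 13.7 CPM in NT. Depleted libraries held 7.77 and 10.1 CPM (0.5 hpd), 6.15 and 6.21 CPM (1 hpd), 7.43 and 7.25 CPM (2 hpd) and 2.81 and 4.37 CPM (6 hpd). Both NT libraries were the highest and both libraries at 6 hpd the lowest. The log2 fold change was -0.54 ± 0.19 after 0.5 h, not called. The later values were -1.04 ± 0.20, -0.80 ± 0.19 and -1.81 ± 0.21, all called (edgeR adjusted p = 0.0044, 0.016 and 3.4e-05). From 2 to 6 hpd it fell by 1.02 ± 0.22 on the log2 scale (edgeR adjusted p = 0.043), a comparison in which 0.517% of all tested TUs were called down. Leaving out NT replicate 2 ended the calls after 1 and 2 h, leaving out either library of 1 hpd the former and leaving out 2 hpd replicate 1 the latter.

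The chain of plus-strand TUs beyond the end of Klf5 was not called. Its most counted member, transcribed-unit_31286, had 1.08 and 1.24 CPM in NT and a log2 fold change of 0.56 ± 0.36 at 0.5 hpd and -0.38 ± 0.41 at 6 hpd. The antisense TU across the start of Klf5, transcribed-unit_31975, was at -0.50 ± 0.40 at 0.5 hpd and -1.0 ± 0.43 at 6 hpd, not called. Pibf1, the upstream neighbour, which encodes a centrosome protein, had 165 and 153 CPM in NT and 193 and 203 CPM at 6 hpd, and its log2 fold change of 0.32 ± 0.12 was not called (edgeR adjusted p = 0.094), but passed with the libraries compared alone (0.33) and when either library of 2 hpd was left out (0.32 and 0.34).

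**Figure D2:**
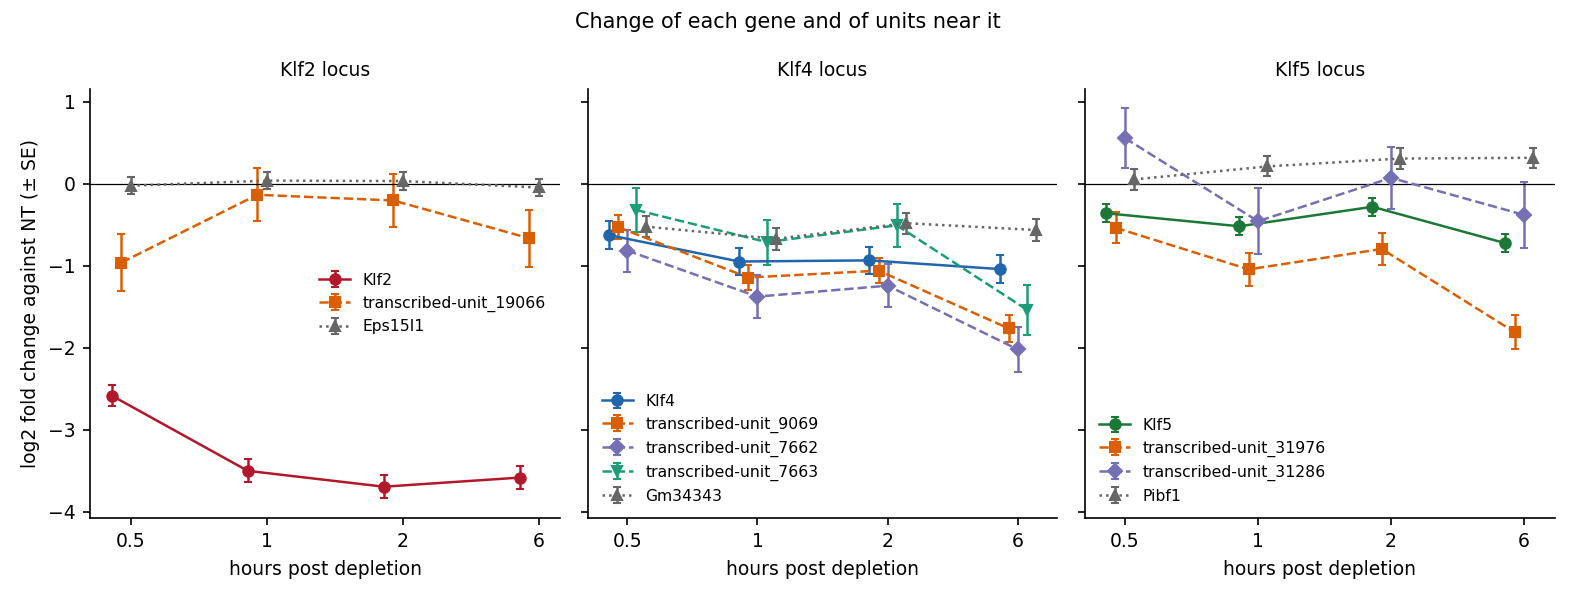
Log2 fold change against NT (± SE, n = 2 libraries per group) by hours post depletion, for each gene, for candidate TUs near it and for a neighbouring gene, in 1 panel per locus; transcribed-unit_18089 and transcribed-unit_19064, which passed the filter through NT alone, are left out. Klf2 stays near -3.5 from 1 hpd while Eps15l1 stays near 0, and the extragenic TUs at Klf4 and within Klf5 lie lower at 6 hpd than at 2 hpd.

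Over the 3 loci, 1, 4, 5 and 6 candidates were called down after 0.5, 1, 2 and 6 h, and none up, where 0.758%, 3.65%, 5.82% and 10.8% of all tested extragenic and antisense TUs were called down. Since 2 of the called TUs passed the filter through NT alone, the counts of called candidates are no measure of the loci. With a filter on a mean of at least 50 fragments over all libraries, which does not favour NT, 3 candidates were tested (transcribed-unit_9069, transcribed-unit_7662 and transcribed-unit_31976), and 0, 3, 3 and 3 of them were called down, where 1.29%, 6.22%, 10.4% and 17.7% of the 3021 extragenic and antisense TUs tested with that filter were. Among the 7 neighbouring genes Gm34343 was the 1 called, after 1, 2 and 6 h. Of tested TUs with a gene symbol, 0.813%, 3.57%, 5.34% and 7.75% were called down at the 4 times.

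**Figure D3:**
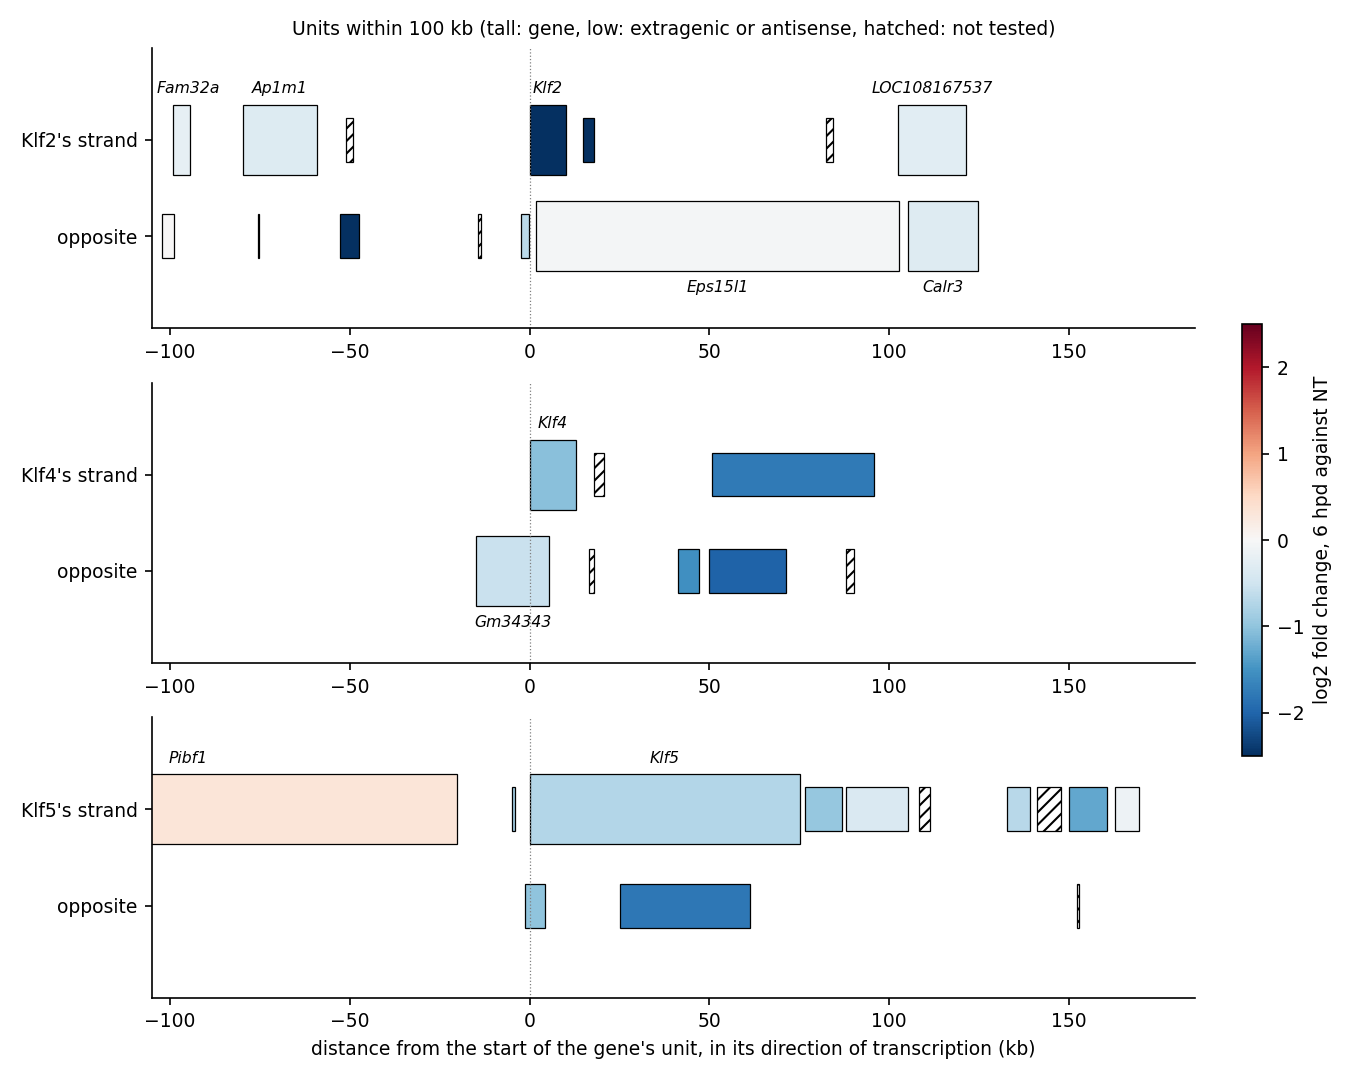
TUs within 100 kb of Klf2, Klf4 and Klf5, by distance in kb from the start of the gene's TU in its direction of transcription; tall boxes are genes, low boxes extragenic or antisense TUs, colour is the log2 fold change at 6 hpd, hatched boxes were not tested, and Pibf1 runs off the left edge. The TUs with values of -1.5 or lower at Klf4 (-1.54, -1.76 and -2.02) lie 41180 to 95899 bp past its start, and that at Klf5 (-1.81) lies within its span; the darkest small boxes at Klf2 are the 2 TUs of few fragments.

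Among the wider KLF and SP family, Klf2 had the lowest value at each time. Of 26 genes, 20 had a TU and were tested (Klf1, Klf14, Klf17, Sp7, Sp8 and Sp9 had none). Called down were 1, 5, 7 and 7 at 0.5, 1, 2 and 6 hpd, the 3 genes above included, and called up were 0, 0, 1 and 2. Of tested TUs with a gene symbol, down calls were made for 0.813%, 3.57%, 5.34% and 7.75%, and up calls for 0.834%, 3.55%, 6.88% and 10.4%. The median log2 fold change of the family was 0.15, 0.15, -0.24 and -0.23, against -0.02, -0.04, -0.04 and -0.04 over all tested TUs. When NT replicate 1, NT replicate 2, 1 hpd replicate 1 or 1 hpd replicate 2 was left out, the number called down at 1 hpd was 3, 2, 1 and 2, respectively. Without NT replicate 1 the number at 2 hpd was 4.

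No family member but Klf2 was called down at 0.5 hpd in the fit as reported. Klf3, a repressor that recruits CtBP, was at 0.46 and 0.33 at 0.5 and 1 hpd and was called at 2 hpd (-0.60, edgeR adjusted p = 0.011) and 6 hpd (-0.53). Without NT replicate 1 its values were -0.40 and -0.31, neither called, and the later call also ended without 6 hpd replicate 2 (-0.40). Klf13 (-0.60 at 2 hpd, -0.48 at 6 hpd) and Klf16 (-0.58 and -0.45) were called at the same times. Klf13 kept both calls whichever library was left out, whereas that of Klf16 at 6 hpd ended without any 1 library of NT or 6 hpd, and its earlier call when 2 hpd replicate 1 or NT replicate 1 was dropped. Klf11, a TGF-β inducible repressor, was called at 2 hpd alone (-0.53), a call that ended without NT replicate 1 or 2 hpd replicate 1 and with the libraries compared alone. Klf8 was called at 6 hpd (-0.59), with total counts also at 2 hpd (-0.42), and with the libraries compared alone it was called up at 1 hpd (0.35). Between 1 and 2 hpd, where 0.197% of all tested TUs were called down, the calls included Klf3 (-0.93), Klf11 (-0.84), Klf16 (-0.71), Klf10 (-0.62), Klf8 (-0.62) and Klf13 (-0.57). Klf2, Klf4 and Klf5 were at -0.19, 0.01 and 0.24 in that comparison.

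Klf15 was called at 1 hpd (-0.64) and 2 hpd (-1.07) but not at 6 hpd (-0.45), where it passed with total counts (-0.54) and the mean filter (-0.50). Its first call ended without NT replicate 1 (-0.42) or either library of 1 hpd. Klf6 was called at 1 hpd alone (-0.58), with 0.15 at 6 hpd, and that call ended whichever library of NT or 1 hpd was left out. Klf7 rose at 2 hpd (0.55) and 6 hpd (0.81, edgeR adjusted p = 7.5e-05), and Sp4 at 6 hpd (0.61). The calls of Klf7 were kept whichever library was left out, and that of Sp4 ended without NT replicate 2 or either library of 6 hpd. Sp1, the ubiquitous factor of the family, had 0.18, 0.19, 0.16 and 0.07, not called.

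**Figure D4:**
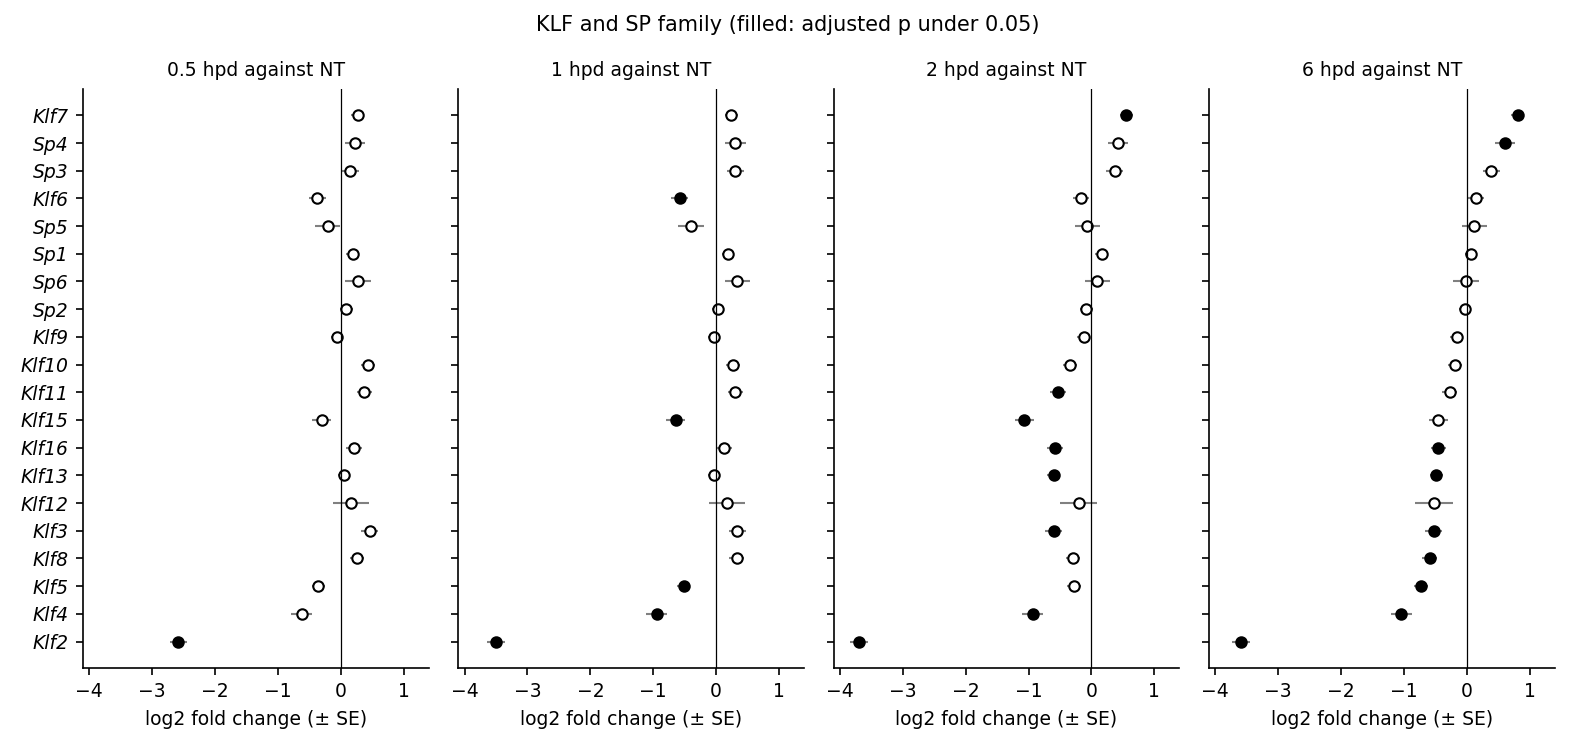
Log2 fold change against NT (± SE, n = 2 libraries per group) of the 20 tested KLF and SP genes, 1 panel per time, ordered by the value at 6 hpd; filled points have an adjusted p under 0.05. Klf2 lies at -2.58 to -3.69, apart from the others, whose values lie between -1.07 and 0.81.

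Of 19 regulators of naive pluripotency, all tested, 2, 5, 8 and 10 were called down at the 4 times and 0, 1, 1 and 1 up, where 0.813%, 3.57%, 5.34% and 7.75% of tested TUs with a gene symbol were called down and 0.834%, 3.55%, 6.88% and 10.4% up. The median was -0.14, -0.29, -0.39 and -0.52. Pou5f1 (OCT4, the partner of SOX2) was at -0.07, -0.29, -0.39 and -0.62 and was called at 2 and 6 hpd. Its call at 2 hpd ended with RLE factors, with the libraries compared alone and without 1 of 5 libraries (either of NT, either of 1 hpd, or 2 hpd replicate 1). Nanog was called at 2 hpd (-0.51) and 6 hpd (-0.43), and Esrrb at 6 hpd alone (-0.53). Without NT replicate 2 none of these 3 calls was kept, and that of Nanog at 6 hpd also ended without either library of 6 hpd. With total counts Esrrb was called at 1 hpd (-0.38) and 2 hpd (-0.41) too. Tfcp2l1 was at 0.01 at 6 hpd and was not called at any time. All 4 of these stayed within 0.62 of NT on the log2 scale, where Klf2 was at -3.58. They do not stand for the list, in which other genes changed more clearly. The lowest adjusted p in the joint test was 1.6e-06 for Prdm14, against 0.0049 for Pou5f1, the lowest of these 4 (edgeR).

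The LIF pathway, which lies upstream of Klf4, was taken as a list of 15 genes. Called down were 2, 2, 2 and 6 (0.813%, 3.57%, 5.34% and 7.75% of TUs with a symbol) and called up 2, 2, 2 and 2 (0.834%, 3.55%, 6.88% and 10.4%), with a median of 0.10, 0.20, -0.10 and -0.25. Lifr, the LIF receptor, was called down at every time (-0.67, -1.50, -1.76 and -1.42), as was its co-receptor Il6st (-0.51, -0.76, -0.59 and -0.65). Stat3, the transcription factor of the pathway, rose at 1 hpd (0.54), 2 hpd (0.59) and 6 hpd (0.35), and its call at 1 hpd ended without 1 hpd replicate 2. Socs3, the feedback inhibitor, was called up at 0.5 hpd (0.87, edgeR adjusted p = 0.029) and was at -0.60 at 6 hpd (edgeR adjusted p = 0.0501). The value at 6 hpd passed with total counts (-0.69), the libraries compared alone (-0.58) and the replicate block (-0.60). It also passed in 4 of the 10 fits that left out a library. The up call of Socs3 ended with total counts, with the mean filter, and without either library of NT, 0.5 hpd replicate 2 or 6 hpd replicate 1. The 2 down calls at 0.5 hpd were both lost without NT replicate 1, NT replicate 2 or 0.5 hpd replicate 2, and none of the 2 up calls at 6 hpd was kept without NT replicate 2 or 6 hpd replicate 2. Il6st lost its call at 0.5 hpd in 6 of the 10 fits that left out a library, and with RLE factors.

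Likeness to each gene was measured over the 10 libraries as the root mean square difference of log2 CPM centred on each TU's mean, among 11937 TUs with a symbol and a mean of at least 50 fragments. The difference is not scaled, so a gene that falls far lies far from most TUs. The nearest to Klf2 were 2500002B13Rik (0.401), Gm41458 (0.448), Mroh4 (0.463), Cdc42ep3 (0.556) and Rsf1os1 (0.570), and the distance from Klf2 to Klf4 was 1.02. Nearest to Klf4 were Zfp553 (0.0811), Gm32994 (0.102), Sept1 (0.123), Ly6e (0.128) and Gsc (0.129). Nearest to Klf5 were Cep55 (0.109), Adrb3 (0.112), Tbx3 (0.113), Gm30822 (0.114) and Gm12031 (0.117). Klf4 and Klf5 were 0.261 apart. Of 2500002B13Rik, the closest to Klf2, the log2 fold changes were -1.66, -2.67, -2.76 and -2.69 at the 4 times. Between 0.5 and 1 hpd 2500002B13Rik (-1.01), Mroh4 (-1.03), Cdc42ep3 (-1.21) and Rsf1os1 (-1.09) were called down, as Klf2 was, whereas Gm41458 (-0.78) was not. In that comparison 0.0984% of all tested TUs were called down. A small distance describes the course and size of the change alone.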

How the data were processed

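The authors labelled nascent RNA with TT_chem-seq in 10 libraries and, per the study's methods, aligned reads to mm10 with BWA 0.7.17-r1188, filtered them with SAMtools 1.10, removed duplicates with Picard 2.12.0 (versions as in the submitters' processing notes), defined TUs on pooled data with a hidden Markov model of 2 states per strand and counted fragments. The deposited values are raw counts per TU, without normalization; TU positions and RefSeq symbols were deposited as well.

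Members and lists were chosen with earlier results of these data known. TUs with over 10 fragments in at least 2 libraries were kept (28459), which left out 12320 TUs with 0.316% of the fragments. Counts were fitted with edgeR 4.0.16 (R 4.3.3; TMM factors, 1 coefficient per group, quasi-likelihood F-test, all 10 libraries) and adjusted by Benjamini-Hochberg over all tested TUs; a TU was called at an adjusted p under 0.05. The SE is the log2 fold change over the square root of F, and the biological coefficient of variation was 10.0%. Replicates differed by more than counting error (chi-square per degree of freedom 2.69 to 9.03). Counting intervals are exact binomial, at 95%, and like the floor of 3 fragments cover counting error only. The procedure was tested on simulated data.

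Text names the 3 genes, candidates within 100 kb that were called or the 3 most counted per locus, tested neighbours, family members called at any time with 6 core factors, and the 5 nearest patterns. In addition, transcribed-unit_19062, Lifr, Il6st, Socs3, Sp1, Klf10 and Prdm14 were named after their values were seen. Alternatives were RLE factors, total counts, no filter, a mean of at least 50 fragments, DESeq2 1.42.0, the libraries compared alone, a replicate block, windows of 50 and 200 kb and leaving out each library. Sequences came from RefSeq on GRCm38.p6, the patch of mm10 given. The set of promoter sequences used held 2 of the 3 genes and had no entry for Klf5, although RefSeq positions of Klf5 were at hand.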

Additional observations from a re-analysis of the deposited data

Results flagged for a closer look

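The response of Klf2 differed between 2 times after depletion: its nascent RNA was lower at 1 than at 0.5 hpd by a log2 fold change of -0.92 ± 0.15 (edgeR adjusted p = 0.022), with both libraries at 1 hpd below both at 0.5 hpd. The adjusted p was 0.0076 to 0.44 over the fits that left out a library.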

How the results depend on the processing

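Of 64 results that answer a comparison, 41 kept their direction and their side of the threshold, or a count within 1.5 times, under every alternative other than leaving out a library. Klf2 against NT was called at all 4 times under every alternative and whichever library was left out, and so were Klf4 and Klf5 at 6 hpd.

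At 0.5 hpd Klf4 passed the threshold with DESeq2 (-0.62) and with the libraries compared alone (-0.61). Klf5 at 2 hpd passed it with total counts only (-0.40), and 6 against 2 hpd for Klf5 with DESeq2 (-0.45). Klf4 at 2 against 1 hpd, 0.01 as reported, turned to -0.0027 with total counts only, -0.0015 with the mean filter and -0.0044 with the libraries compared alone. Among single genes that were not called, total counts only turned Eps15l1 (-0.049 at 1 hpd and -0.085 at 2 hpd), Sox2 (-0.020 at 2 hpd and -0.029 at 6 hpd) and Tfcp2l1 (-0.029 and -0.078), the mean filter turned Tfcp2l1 at 6 hpd (-0.040) and the libraries compared alone turned Sox2 at 0.5 hpd (0.0059).

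The candidates called down moved to 0 at 0.5 hpd, 3 at 2 hpd and 3 at 6 hpd with the mean filter, where fewer TUs were tested. DESeq2 gave no adjusted p for 11, 8, 9 and 0 candidates at the 4 times, which were left out of its comparison. Windows of 50 and 200 kb kept the counts within 1.5 times. Neighbouring genes called down became 2 at 6 hpd with the mean filter, and 0 at 2 hpd with DESeq2 and with the libraries compared alone, which gave 1 up (Pibf1) at 6 hpd. For the KLF and SP family, DESeq2 and the libraries compared alone gave 2 down at 0.5 hpd, and the latter 3 up at 1 hpd. For the naive regulators, total counts only and the libraries compared alone gave 9 down at 1 hpd, and the latter 2 up. For the LIF-STAT3 list at 0.5 hpd, RLE factors gave 1 down, and total counts only and the mean filter gave 1 up. The cause was not tested except where fewer TUs were tested.

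Replicates of the same number deviated together only in part (r of 0.074 to 0.29 over TUs, 2 of 10 pairs of groups under 0.1), so the numbers were not taken to pair the samples. With the replicate number as a block, Klf4 (-0.63) and Klf5 (-0.36) were called at 0.5 hpd, Klf5 at 2 hpd (-0.28) and Klf5 at 6 against 2 hpd (-0.44). At 0.5 hpd the block gave 3 candidates (transcribed-unit_9069 and transcribed-unit_7662 among them) and 1 neighbour down, 2 family members up and 3 down, and 1 naive regulator up and 4 down. It gave 2 and 3 family members up at 1 and 2 hpd, 1 neighbour up at both 2 and 6 hpd, and 2 neighbours down at 6 hpd.

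Leaving out each library in turn gave, for members against NT, -0.84 to -0.41 (Klf4, 0.5 hpd), -1.11 to -0.80 (Klf4, 1 hpd) and -1.21 to -0.71 (Klf4, 2 hpd). For Klf5 it gave -0.47 to -0.23 (0.5 hpd), -0.62 to -0.38 (1 hpd) and -0.40 to -0.16 (2 hpd). Between times it gave -1.01 to -0.83 (Klf2, 1 against 0.5 hpd), -0.073 to 0.34 (Klf2, 6 against 2 hpd), -0.16 to 0.0094 (Klf2, 6 against 1 hpd), -0.28 to 0.24 (Klf4, 2 against 1 hpd), -0.33 to 0.19 (Klf4, 6 against 2 hpd) and -0.24 to 0.072 (Klf4, 6 against 1 hpd). Candidates called down ranged over 0 to 1, 1 to 4 and 1 to 5 at 0.5, 1 and 2 hpd, and neighbours over 0 to 1 down at 1, 2 and 6 hpd and 0 to 1 up at 2 and 6 hpd. The family ranged over 1 to 2, 1 to 5 and 4 to 8 down at 0.5, 1 and 2 hpd and over 0 to 1, 0 to 1, 1 to 3 and 1 to 3 up at the 4 times. Naive regulators ranged over 5 to 9 down at 2 hpd and 0 to 1 up at 1 and 6 hpd. The LIF-STAT3 list ranged over 0 to 2 and 2 to 4 down at 0.5 and 2 hpd, and over 1 to 2 up at 0.5, 1 and 2 hpd and 0 to 3 at 6 hpd. Single genes that were not called turned sign over the ranges -0.071 to 0.030, -0.056 to 0.10 and -0.135 to 0.053 (Eps15l1 at 0.5, 2 and 6 hpd), -0.32 to 0.31, -0.37 to 0.25, -0.49 to 0.14 and -0.56 to 0.093 (LOC108167537 at the 4 times), -0.032 to 0.14 and -0.098 to 0.074 (Klf13 at 0.5 and 1 hpd), -0.11 to 0.11, -0.21 to 0.014, -0.015 to 0.21 and -0.027 to 0.19 (Sox2 at the 4 times), -0.14 to 0.0050 (Pou5f1 at 0.5 hpd), -0.066 to 0.10 (Tfcp2l1 at 6 hpd), -0.062 to 0.17 (Pibf1 at 0.5 hpd), -0.62 to 0.024 (Socs3 at 2 hpd) and -0.039 to 0.34 (Klf6 at 6 hpd).

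Depth limits the candidates: 10 of 25 were not tested, and those near Klf2 held at most 27 fragments in a library. With 2 libraries per group, calls at each of the 4 times were lost when a single library was left out.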
